A study of Mus musculus with 21 samples.

Results

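The genes of the epidermal differentiation complex were followed through 3 tables of RNA sequencing of mouse skin keratinocytes. Members were taken by symbol: every Lce, Sprr and S100a gene followed by a digit, together with Lor, Ivl and the fused-type genes Flg, Flg2, Hrnr, Rptn, Crnn, Tchh and Tchhl1. This gave 57 genes of 43776 symbols in the table of 3 populations, or 64 of 43945 loci, because Flg was listed at 8 loci. There were 21 Lce genes, 15 Sprr genes, 12 S100a genes and 9 genes in the group of Lor, Ivl and the fused type. Loci that carried several merged symbols were not members.

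The series held 21 libraries of polyadenylated RNA in 7 groups of 3. A first set held keratinocytes of wild type mice, namely hair follicle stem cells (HFSCs) purified by cell sorting, total epidermal cells, and cultured HFSCs; the culture time of the latter was not given in the sources used here. The second set came from total epidermal cells grown for 10 to 14 days in HFSC cultures, known as 3C cultures, and sorted on alpha-6 integrin and CD34 into a CD34+ and a CD34neg fraction. In the inhibitor set, 3C cultures of the same 10 to 14 days had received dorsomorphin, an inhibitor of BMP type I receptors that also acts on AMP-activated kinase, or cyclopamine, an inhibitor of the Hedgehog transducer Smoothened, for 48 h. The labels gave no genotype, strain or age for the sorted 3C fractions or the inhibitor set. For no set did they say if replicates were separate animals, separate cultures or repeats of 1 preparation. The question of the sorted fractions was the identity of the cells that grow in 3C cultures, and that of the inhibitors was which early changes accompany loss of HFSCs with dorsomorphin and gain with cyclopamine.

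The complex is a dense cluster of genes that are switched on as keratinocytes leave the basal layer and turn into dead, flattened corneocytes. Loricrin, involucrin, the small proline-rich proteins and the late cornified envelope proteins are cross-linked by transglutaminases into the cornified envelope, a shell that replaces the plasma membrane. Filaggrin and its fused-type relatives bundle keratin filaments or join the envelope, trichohyalin hardens the inner root sheath of the hair follicle, and S100A proteins are small calcium-binding proteins with roles inside and outside the cell. Several Sprr and Lce3 genes, S100a8 and S100a9 are low in resting skin and are known to be induced by wounding, barrier damage and inflammation.

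Each table gave 1 FPKM value, a read count scaled to transcript length and library size, per locus and population. Every FPKM below is therefore the authors' value, with no spread between replicates beside it, and read depth was unknown. A member counts as called, higher or lower, when the authors' deposited table gave it an adjusted p under 0.05, and log2 differences are of FPKM + 1, a pseudocount that shrinks differences of low genes. In the table of 3 populations the adjusted p could not go below 0.000212. That table names its populations bulk, CD34a6 and HFSC. Bulk was taken for the total epidermal cells. Whether CD34a6 or HFSC was the freshly sorted population is not stated in the labels, so HFSC is used below as a column name only. Cd34, which marks bulge stem cells, was at 327 FPKM in CD34a6, 8.70 in HFSC and 10.6 in bulk, and Krt15, a bulge keratin, at 9923, 37.9 and 4791. Of the other bulge markers listed, Lhx2 was at 270, 2.06 and 7.91 FPKM in the same order and Lgr5 at 70.5, 0.299 and 1.88. Sox9, at 180, 55.2 and 20.4 FPKM, went the other way in HFSC, where it was called higher than in bulk. Cd34 was not called between HFSC and bulk, nor Krt15 between CD34a6 and bulk. Krt5, the keratin of basal keratinocytes, was abundant in all 7 populations, between 3619 and 6893 FPKM. The tables were normalised separately and are compared only within themselves. In bulk RNA of this kind, fewer cells of a type and less RNA per cell cannot be told apart.

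The promoters of 6 members are shown because they stand for the groups that behaved differently below. They run from 250 bases before to 50 bases after the RefSeq transcription start on GRCm38.p6, and 50 of the 57 members had such an entry. Capitals mark TGANTCA, the core of the motif bound by AP-1 factors, whose reverse complement has the same form. They also mark TATAAA on the sense strand, the core promoter element that places the start site. Lor (chr3:92083093-92083392, minus strand) and Ivl (chr3:92573686-92573985, minus strand) encode the envelope proteins loricrin and involucrin. Sprr1b (chr3:92438730-92439029, minus strand) and Sprr2d (chr3:92338890-92339189, plus strand) encode small proline-rich proteins. Lce3c (chr3:92944236-92944535, plus strand) and Lce1m (chr3:93019012-93019311, minus strand) encode late cornified envelope proteins.
Lor: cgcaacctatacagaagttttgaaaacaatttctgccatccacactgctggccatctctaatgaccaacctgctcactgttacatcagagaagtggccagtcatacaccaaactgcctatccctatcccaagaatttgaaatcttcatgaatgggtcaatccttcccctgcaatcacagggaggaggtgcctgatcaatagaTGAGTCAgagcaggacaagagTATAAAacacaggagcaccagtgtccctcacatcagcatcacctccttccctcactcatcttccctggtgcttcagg
Ivl: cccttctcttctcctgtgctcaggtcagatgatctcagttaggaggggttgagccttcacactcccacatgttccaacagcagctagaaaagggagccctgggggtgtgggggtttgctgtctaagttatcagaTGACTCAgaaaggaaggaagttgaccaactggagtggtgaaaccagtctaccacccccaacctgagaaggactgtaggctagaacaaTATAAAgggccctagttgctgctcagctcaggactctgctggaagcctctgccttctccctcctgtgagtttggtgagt
Sprr1b: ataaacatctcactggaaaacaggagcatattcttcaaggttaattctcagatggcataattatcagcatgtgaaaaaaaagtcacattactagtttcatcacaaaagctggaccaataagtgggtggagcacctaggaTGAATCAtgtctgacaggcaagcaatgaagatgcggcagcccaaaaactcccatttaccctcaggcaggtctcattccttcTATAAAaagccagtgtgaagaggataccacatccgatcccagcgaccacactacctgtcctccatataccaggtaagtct
Sprr2d: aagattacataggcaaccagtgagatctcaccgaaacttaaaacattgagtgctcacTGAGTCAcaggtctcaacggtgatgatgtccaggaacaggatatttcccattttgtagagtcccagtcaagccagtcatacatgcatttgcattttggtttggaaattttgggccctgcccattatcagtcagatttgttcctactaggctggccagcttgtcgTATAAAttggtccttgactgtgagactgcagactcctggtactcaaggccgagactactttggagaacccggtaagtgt
Lce3c: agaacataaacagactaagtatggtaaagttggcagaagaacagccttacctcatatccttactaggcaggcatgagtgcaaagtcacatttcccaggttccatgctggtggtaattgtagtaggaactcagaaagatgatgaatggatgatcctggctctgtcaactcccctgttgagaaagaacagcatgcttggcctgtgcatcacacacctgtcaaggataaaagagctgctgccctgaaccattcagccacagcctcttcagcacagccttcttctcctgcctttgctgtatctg
Lce1m: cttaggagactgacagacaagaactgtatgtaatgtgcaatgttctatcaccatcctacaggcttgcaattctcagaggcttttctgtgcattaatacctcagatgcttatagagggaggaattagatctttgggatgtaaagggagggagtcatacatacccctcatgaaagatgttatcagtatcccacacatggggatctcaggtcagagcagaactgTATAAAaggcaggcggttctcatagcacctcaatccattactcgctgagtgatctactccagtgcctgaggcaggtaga

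TGANTCA was found in 9 of 12 Sprr promoters (75%), in 7 of 9 of the Lor, Ivl and fused-type group (77.8%), in 1 of 9 S100a promoters and in 0 of 20 Lce promoters, against 7.93% of 27025 promoters of the same length. It lay 48 bases before the start in Lor, 116 in Ivl, 111 in Sprr1b and 193 in Sprr2d. In Sprr2b, Sprr2d, Sprr2e, Sprr2f, Sprr2h, Sprr2i and Sprr2k its first copy lay between 193 and 198 bases before the start. Searched on both strands, TATAAA was in 10 of 12 Sprr promoters, 6 of 9 of the Lor, Ivl and fused-type group, 2 of 9 S100a and 4 of 20 Lce promoters, against 14.2% of all. The shorter motif CACCC, read by Klf-type factors, was in 52% of the members' promoters on either strand and in 56.7% of all. A match describes the letters of the window only, and the group counts are over genes that share ancestry.

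On GRCm38 the members lay on chromosome 3 between 90511034 and 93564643, with most S100a genes at one end, S100a11 and S100a10 at the other, and the Sprr and Lce clusters between Lor and the fused-type genes. Of the 57 loci, 51 had the same start and end as the gene in the GENCODE vM21 annotation. Hrnr, Rptn and Tchh were all given the locus chr3:93306468-93465359, although each had its own FPKM, and the S100a2 locus also spans S100a3 and S100a4. Flg was represented by its longest locus, chr3:93273523-93280313, which also holds the pseudogene Rplp0-ps1. Near-identical copies limit some values: a median of 23.5% of the 50-base windows of an Lce transcript were found in another gene as well, with 49.3% for Lce3d, and 11 of 21 Lce genes were above 20%. For Sprr2a3 the share was 61.1%, mostly with Sprr2a1, and for S100a11 it was 41.1%, with Gm12854. How reads were shared between these copies was not given in the sources used here, so single Lce1, Lce3, Sprr2a3 and S100a11 values are uncertain between copies. Lor, Lce1m, Lce6a, Sprr1a, Sprr1b, S100a8 and S100a9 had 0% of windows in another gene.

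The mix of complex transcripts differed between the 3 populations of the first table. In bulk the members made up 1.57% of all FPKM, and Lor, the main protein of the mature envelope, led with 5734 FPKM, followed by S100a11 with 1650, S100a14 with 1633, Lce1m with 1087 and S100a6 with 760. In CD34a6 they made up 1.06% of all FPKM and 95.8% of that was S100a, with S100a6 alone at 2571 FPKM. In HFSC they made up 1.70%, of which S100a genes were 59.1%, Sprr genes 27.0%, Lce genes 12.1%, and Lor, Ivl and fused-type genes 1.797%. The Sprr1a and Sprr1b precursors of the envelope were among the 5 most abundant members there, at 946 and 647 FPKM. Members at 1 FPKM or more numbered 21 in CD34a6, 37 in bulk and 52 in HFSC, and those listed at 0 numbered 17, 7 and 2.

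**Figure D1:**
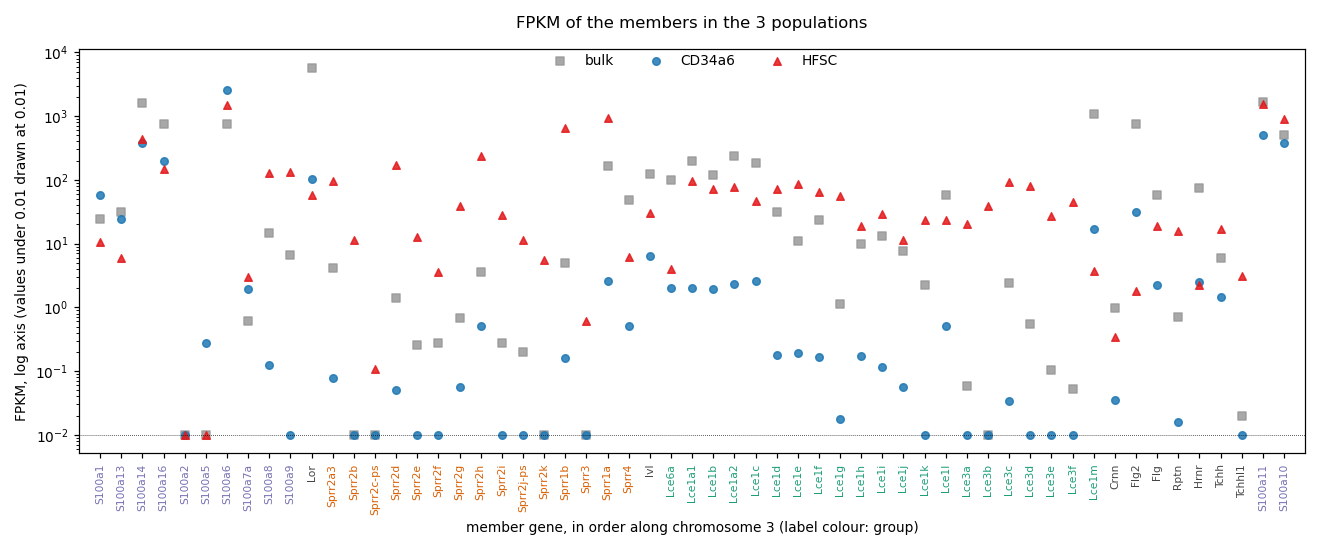
FPKM of the 57 members (log axis, 1 point per population, no error bars because 1 value per population was deposited), ordered along the chromosome with label colours for the Lce, Sprr, S100a and Lor, Ivl and fused-type groups, and values under 0.01 drawn at 0.01. Bulk squares lie above both other populations for Lor, Lce1m and Flg2, and HFSC triangles do so for most of the Sprr genes and the 6 Lce3 genes.

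Most tested members had lower transcript levels in CD34a6 than in bulk. Against bulk, 42 of the 57 members were tested and 26 were called lower and 3 higher in the authors' deposited table, a share of 69.0% where 46.3% of 14441 tested loci were called, 22.0% higher and 24.3% lower. The median log2 difference of the tested members was -3.00, and that of all tested loci 0.00. FPKM summed to 406712 in CD34a6 and 917071 in bulk. Scaling both to the same total moves every log2 ratio without a pseudocount up by 1.17. The pseudocount was added after scaling, so scaled log2 differences of FPKM + 1 shift by other amounts. The share of higher among all calls moved from 47.4% to 59.1%, but no called member changed direction with the scaling. Markers of immune cells summed to 9.65 FPKM in CD34a6 and 430 in bulk, with 7 of 8 called lower, and those of the inner root sheath to 2.27 and 97.5, with 4 of 5 called lower. The part of these other cells in the members' differences was not tested.

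The structural genes gave the widest gaps. Loricrin transcripts (Lor) stood at 105 FPKM in CD34a6 but 5734 in bulk, 54.9-fold apart, and the authors' deposited table gave an adjusted p of 0.000212. Ivl, whose product is an early scaffold of the envelope, was at 6.29 and 122 FPKM. Among fused-type genes Flg2 was at 31.5 and 745 FPKM, Hrnr at 2.47 and 74.3 and Flg at 2.26 and 58.9, all called lower. Rptn (0.0159 and 0.695), Crnn (0.0357 and 0.962) and Tchh (1.46 and 6.002) were not called, and Tchhl1, at 0 and 0.0195 FPKM, was not tested. The tested genes of this group had a median log2 difference of -4.14.

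Lce genes were called lower for 14 of the 17 tested and higher for 0, with a median log2 difference of -4.40. The Lce1 genes that were most abundant in bulk were all far below it. Lce1a2 was at 2.30 FPKM in CD34a6 against 235 in bulk. Lce1a1 was at 2.01 against 195, Lce1c at 2.59 against 183 and Lce1m at 17.2 against 1087. These are the late envelope proteins of ordinary interfollicular skin. Lce3 genes were low in both populations, with sums of 0.0335 FPKM in CD34a6 and 3.17 in bulk, and 4 of the 6 were not tested.

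Of 15 Sprr genes 7 were tested, all below their bulk level, with a median log2 difference of -2.24 and a range of -5.54 to -0.68. The 3 called lower were Sprr1a (2.58 FPKM against 165 in bulk), Sprr1b (0.159 against 5.01) and Sprr2a3 (0.0780 against 4.08). Sprr4 was not called, although it was at 0.514 FPKM against 48.5, a log2 difference of -5.03. S100a genes were called in both directions. Of 10 tested S100a genes 4 were called lower and 3 higher, with a median log2 difference of -1.05 that becomes 0.11 when both populations are scaled to the same total. S100a6, which is abundant in many dividing cells, was called higher at 2571 FPKM against 760, S100a1 at 57.2 against 24.1 and S100a7a at 1.95 against 0.614. Fibroblast markers, from cells that also make S100a6, summed to 33.1 FPKM in CD34a6 and 4.35 in bulk, with 2 of 3 tested called higher. These were Col1a1 (22.4 against 1.21) and Col1a2 (8.08 against 0.825), while Dcn (2.58 against 1.99) was not called. Col3a1 and Lum, listed at 0 in CD34a6, and Pdgfra, at 0.0410, were not tested. The part of fibroblasts in the S100a differences was not tested. S100a14 (377 against 1633), S100a16 (196 against 739) and S100a11 (506 against 1650) were called lower. S100a9, which encodes a subunit of calprotectin, was called with 6.74 FPKM in bulk and a listed value of 0 in CD34a6. Its partner S100a8, at 0.125 and 14.8 FPKM, was not, and the authors' deposited table gave it an adjusted p of 0.312.

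That pair shows a property of the deposited test. All 3 tested members with a value of 0 in CD34a6 or bulk were called, whereas 9 members that differed at least 10-fold, with a lower value above 0 but under 1 FPKM, were not. The corresponding numbers for HFSC against bulk were 4 of 4 and 4, and for HFSC against CD34a6 15 of 15 and 9. For members near 0, being called or not therefore does not track the size of the difference.

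HFSC differed from bulk in both directions. Of 54 tested members, 29 were called higher and 17 lower in the authors' deposited table, together 85.2%, where 43.7% of 14035 tested loci were called, 19.0% higher and 24.7% lower. The median log2 difference was 1.34 for members and -0.11 for all tested loci. FPKM summed to 482148 in HFSC. Scaling to the same total adds 0.93 to each log2 ratio without a pseudocount, which turned the direction of 1 called member, Lce1b (71.0 against 120 FPKM). Immune markers summed to 7.70 FPKM in HFSC against 430 in bulk and inner root sheath markers to 0.352 against 97.5, and their part was not tested.

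The Sprr group lay at the high end. Of 14 tested Sprr genes 13 were called higher in HFSC and 1 lower, with a median log2 difference of 3.54. Sprr1b was at 647 FPKM in HFSC and 5.01 in bulk, 129-fold higher, and its log2 difference of 6.75 was the largest positive one of any member. Sprr1a was at 946 and 165 FPKM. Both encode precursors that appear early in envelope assembly. Within the Sprr2 cluster Sprr2h was at 233 FPKM against 3.61, Sprr2d at 172 against 1.42 and Sprr2a3 at 94.4 against 4.08. The 10 tested Sprr2 genes, 2 of them listed at 0 in bulk, were all called higher in HFSC. Sprr4 went the other way, at 6.11 FPKM in HFSC and 48.5 in bulk. Sprr3, an esophageal family member, was at 0.610 FPKM and listed at 0 in bulk.

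The Lce cluster was divided. The 6 Lce3 genes were at 20.4 to 93.1 FPKM in HFSC and at 0 to 2.41 in bulk, and summed to 305 FPKM against 3.17. Lce3b, Lce3c and Lce3d were called higher. Lce3a, Lce3e and Lce3f, at 0.0590, 0.106 and 0.0524 FPKM in bulk, were not, although each differed 253-fold or more. Lce1 genes split 7 higher to 6 lower: Lce1d, Lce1e, Lce1f, Lce1g, Lce1h, Lce1i and Lce1k were called higher, and Lce1a1, Lce1a2, Lce1b, Lce1c, Lce1l and Lce1m lower. The 2 sets differed in bulk more than in HFSC, but they were split by calls against these same bulk values, so a gap there is partly built in. Those called higher were at 1.13 to 30.98 FPKM in bulk and those called lower at 58.6 to 1087, while in HFSC Lce1m was at 3.72 FPKM and the other 12 stood between 19.1 and 94.6. Lce6a, a lone member of its subfamily, was lower at 3.96 against 99.9 FPKM.

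Lor, Ivl and 3 of the 7 fused-type genes, Flg, Flg2 and Hrnr, were called lower in HFSC. Lor was at 57.6 FPKM against 5734 in bulk, 99.5-fold lower. Flg2 was at 1.79 against 745, 417-fold lower, and Hrnr at 2.28 against 74.3. Flg (18.9 against 58.9 FPKM) and Ivl (30.1 against 122) were called lower by smaller factors of 3.12 and 4.07. Rptn, a repetin gene of the envelope, was the 1 gene of this group called higher, at 15.9 against 0.695 FPKM. Tchh (17.3 against 6.002), Tchhl1 (3.07 against 0.0195) and Crnn (0.345 against 0.962) were not called.

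S100a genes were called higher for 5 and lower for 4 of 10. The calprotectin genes S100a8 and S100a9 were at 128 and 135 FPKM in HFSC against 14.8 and 6.74 in bulk. Neutrophils also make calprotectin in quantity. Of their 10 markers 7 were listed at 0 in HFSC and 5 in bulk, with sums of 1.31 and 2.37 FPKM over the list. Ltf, the highest in HFSC at 0.872 and listed at 0 in bulk, was called higher, and Itgam and Lyz2 lower. The part of neutrophils was not tested. S100a6, S100a10, which partners annexin A2, and S100a7a were called higher. S100a1, S100a13, S100a14 and S100a16 were called lower, and S100a11 was at 1574 and 1650 FPKM.

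**Figure D2:**
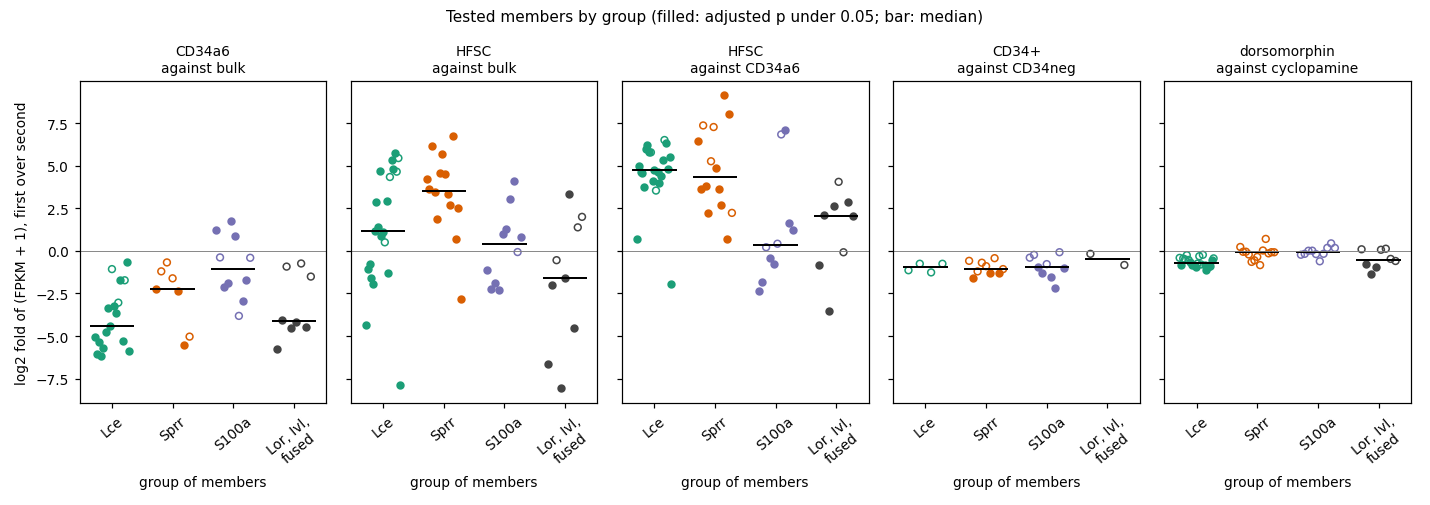
Log2 difference of FPKM + 1 for every tested member (1 point each, filled where the adjusted p was under 0.05, bar at the group median) in each comparison, by group. Lce genes lie low in CD34a6 against bulk (median -4.40), spread to both sides in HFSC against bulk, and lie high in HFSC against CD34a6 (median 4.76).

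Set directly against CD34a6, HFSC had more transcripts of most of the complex. Of 53 tested members 34 were called higher in HFSC and 7 lower in the authors' deposited table, together 77.4%, where 54.2% of 13962 tested loci were called, 25.2% higher and 29.0% lower. The median log2 difference was 4.01 for members and -0.07 for all tested loci. Scaling to the same total, which adds -0.25 to each log2 ratio without a pseudocount, turned 0 called members. Lce genes were called higher for 17 of 21 and lower for 1, Sprr genes higher for 10 of 14, and S100a genes higher for 3 and lower for 4 of 10. Of the 34 higher calls 15 were against a value of 0 in CD34a6, and 19 were left without them.

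The Sprr1b level was 647 FPKM in HFSC but 0.159 in CD34a6, and that of Sprr1a 946 and 2.58. Lce1e (87.4 and 0.193), Lce1d (72.2 and 0.180) and Lce1f (64.5 and 0.163) were called higher by 395- to 452-fold, and Lce3d, Lce3f and Lce3b were at 80.5, 44.97 and 39.2 FPKM and listed at 0 in CD34a6. Lce3c, at 93.1 and 0.0335 FPKM, and Sprr2d, at 172 and 0.0514, were among the members that were not called. Ivl was 4.78-fold higher in HFSC and Flg 8.37-fold, and Tchh was at 17.3 FPKM against 1.46. Lor (57.6 and 105 FPKM), Flg2 (1.79 and 31.5) and Lce1m (3.72 and 17.2) were called lower in HFSC, as were S100a1, S100a6, S100a13 and S100a16. Fibroblast markers summed to 0.597 FPKM in HFSC and 33.1 in CD34a6, with 2 of 3 tested called lower, and their part was not tested. Col1a1 (0.447 against 22.4) and Dcn (0.0358 against 2.58) were called and Col1a2 (0.0223 against 8.08) was not. Col3a1 and Lum, listed at 0 in both, and Pdgfra (0.0913 against 0.0410) were not tested. S100a9 was at 135 FPKM and listed at 0 in CD34a6, and S100a11 and S100a10 were called higher at 1574 against 506 and 901 against 383.

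The 3 pairs share their populations, so the calls against bulk are set side by side only. Of all tested loci 22.0% were called higher and 24.3% lower in CD34a6, and 19.0% and 24.7% in HFSC. The share of all loci with each joint pattern was not counted, so the counts below are a description of the members only. There were 14 members called lower in both, namely Lor, Ivl, Flg, Flg2, Hrnr, Lce6a, 6 Lce1 genes, S100a14 and S100a16. Another 11 were called lower in CD34a6 and higher in HFSC: Lce1d, Lce1e, Lce1f, Lce1h, Lce1i, Lce1k, Lce3d, Sprr1a, Sprr1b, Sprr2a3 and S100a9. A further 16, of which 10 were Sprr genes, were called higher in HFSC and not called in CD34a6. Not called includes not tested here, since 8 of the 15 Sprr genes were not tested in CD34a6 against bulk. S100a6 and S100a7a were called higher in both, and S100a1 higher in CD34a6 and lower in HFSC.

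In 3C cultures 8 members, all S100a or Sprr genes, were lower in the CD34+ than in the CD34neg fraction, and the members together made up 0.958% and 1.01% of all FPKM. Of 57 members 24 were tested, and 8 were called lower in CD34+ and 0 higher in the authors' deposited table (11 and 0 at an unadjusted p under 0.05), a share of 33.3%, where 6.79% of 11370 tested loci were called, 2.08% higher and 4.71% lower. All 24 were below their CD34neg level in the deposited FPKM, and the median log2 difference was -0.93 for members and -0.07 for all tested loci. FPKM summed to 511087 in CD34+ and 679500 in CD34neg. Scaling to the same total adds 0.41 to each log2 ratio without a pseudocount. It left 21 of the 24 below, with Ivl, S100a11 and S100a13 above, and turned 0 of the 8 called members. Cd34 itself was at 38.7 FPKM in CD34+ and 2.26 in CD34neg, and Krt15 at 62.4 and 10.7.

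The calls were in the S100a and Sprr groups. S100a9 was at 9.10 FPKM in CD34+ and 45.02 in CD34neg and S100a8 at 9.90 and 30.3. Of 10 neutrophil markers 8 were listed at 0 in both fractions and the list summed to 0.135 and 0.248 FPKM, and their part was not tested. S100a16 was at 33.4 and 84.3 FPKM, S100a10 at 700 and 1390 and S100a14 at 115 and 224. S100a6 was at 932 and 1595 FPKM and missed the threshold (adjusted p 0.0586, the authors' deposited table). Of the Sprr genes, Sprr1a was at 106 and 266 FPKM, Sprr2d at 12.4 and 39.4 and Sprr2h at 4.08 and 11.5, all called lower, while Sprr1b, at 40.3 and 54.4, was not. S100a11, the most abundant member in both fractions, was at 2823 and 2976 FPKM.

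Lce genes, Lor, Ivl and the fused-type genes were scarce in both fractions, while Sprr genes summed to 242 FPKM in CD34+ and 496 in CD34neg. Lce genes summed to 9.97 FPKM in CD34+ and 21.7 in CD34neg, and Lor, at 0.200 and 0.405, was not tested. Of 21 Lce genes 4 were tested and 0 called, with 0 also at an unadjusted p under 0.05 in the authors' deposited table, among them Lce3c at 0.789 and 2.01 FPKM. Ivl was at 1.91 and 2.28 FPKM and Flg at 1.37 and 3.20, where the authors' deposited table gave Flg an adjusted p of 0.115. Flg was the 1 of the 2 tested genes of its group that was lower at an unadjusted p under 0.05, and 0 were called.

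**Figure D3:**
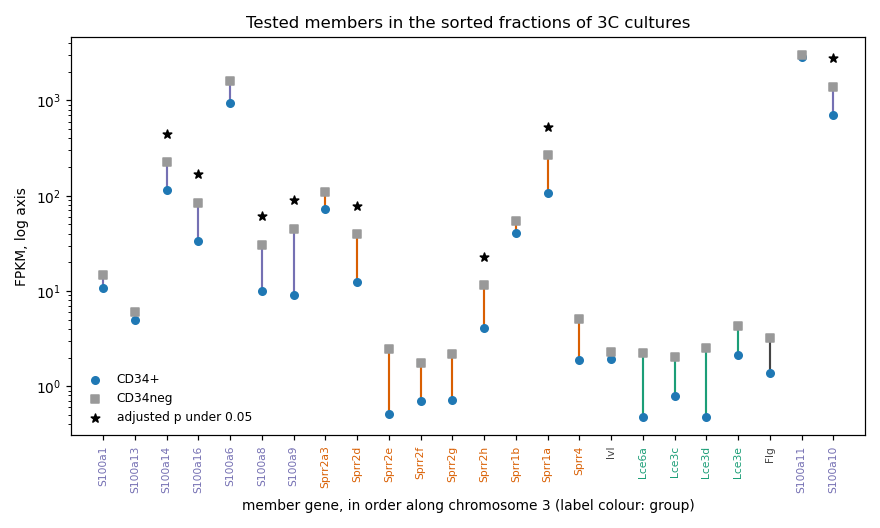
FPKM (log axis) of the 24 tested members in the CD34+ (circles) and CD34neg (squares) fractions of 3C cultures, 1 value per fraction and no error bars, ordered along the chromosome, with stars where the adjusted p was under 0.05. Each circle lies below its square in the deposited FPKM, and the 8 stars are on S100a and Sprr genes.

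The inhibitor table held no untreated culture, so its values are a difference between dorsomorphin and cyclopamine and do not say which of them moved a gene. Called lower with dorsomorphin were 5 of 6 Lce3 genes, 5 of 13 tested Lce1 genes, Flg, Ivl and Crnn, while 0 of 13 tested Sprr genes and 0 of 10 tested S100a genes were called. Of 51 tested members 13 were called lower with dorsomorphin and 0 higher in the authors' deposited table, a share of 25.5%, where 2.57% of 11505 tested loci were called, 1.26% higher and 1.31% lower. The median log2 difference was -0.41 for members and -0.02 for all tested loci, and 40 of the 51 were below their level with cyclopamine. Scaling to the same total adds 0.11 to each log2 ratio without a pseudocount and left 36 below, with 0 called members turned. At an unadjusted p under 0.05 in the same table, 25 members were lower and 2 higher. Of the 13 called members 3 reached a 2-fold difference in FPKM, namely Crnn, Lce3b and Lce1h.

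Lce genes accounted for 10 of the calls, among 20 tested, with a median log2 difference of -0.69. Of the 6 Lce3 genes 5 were called: Lce3b was at 11.2 FPKM with dorsomorphin and 25.4 with cyclopamine, Lce3c at 66.2 and 128, Lce3d at 47.7 and 90.8, Lce3a at 20.8 and 37.7 and Lce3e at 95.8 and 140. Lce3f, at 32.0 and 43.8 FPKM, was not. Of 13 tested Lce1 genes 5 were called, with Lce1h at 8.92 and 18.1 FPKM, Lce1f at 22.9 and 42.2 and Lce1a1 at 23.0 and 41.7. All 20 tested Lce genes were below their cyclopamine level. Since copies of Lce3 and Lce1 share sequence, these calls are not independent of each other.

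Beyond the Lce cluster Flg was at 71.1 FPKM with dorsomorphin and 140 with cyclopamine, and Ivl at 24.5 and 43.1, and the authors' deposited table gave each an adjusted p of 0.00479. Crnn, the cornulin gene, was at 1.52 and 5.43 FPKM, with adjusted p 0.0247 per the authors' deposited table and the largest log2 difference of any member, -1.35. Lor, at 3.79 and 3.48 FPKM, was low in both cultures. Rptn, Hrnr, Tchh and Tchhl1 were not called.

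Sprr1a, which was not called, led both cultures with 4860 FPKM with dorsomorphin and 5122 with cyclopamine, and its adjusted p was 0.938 in the authors' deposited table. Sprr1b was at 483 and 534 FPKM and Sprr2d at 391 and 405. The median log2 difference was -0.08 for 13 tested Sprr genes and -0.08 for 10 tested S100a genes, and scaling both cultures to the same total turns each to 0.03. At an unadjusted p under 0.05 in the authors' deposited table, 4 Sprr genes were lower and 1 higher, and 1 S100a gene was lower and 1 higher. S100a9 was at 149 and 132 FPKM, S100a8 at 58.8 and 66.2 and S100a11 at 3207 and 2359, and for S100a11 the authors' deposited table gave an adjusted p of 0.0516. The interval of these differences cannot be had from 1 value per culture, so no likeness is shown by them. Of 4 tested bulge markers Krt15 alone was called, lower with dorsomorphin at 3.61 against 20.6 FPKM. Cd34 (6.87 against 11.7), Lhx2 (1.14 against 1.54) and Sox9 (50.6 against 47.2) were not called, and Lgr5 was not tested. Of the 4 basal keratinocyte markers 0 were called or had an unadjusted p under 0.05 in the authors' deposited table. Among immune markers H2-Ab1 was higher, at 17.9 against 9.65 FPKM, within a list that summed to 44.1 and 36.6, and its part in the members' differences was not tested.

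**Figure D4:**
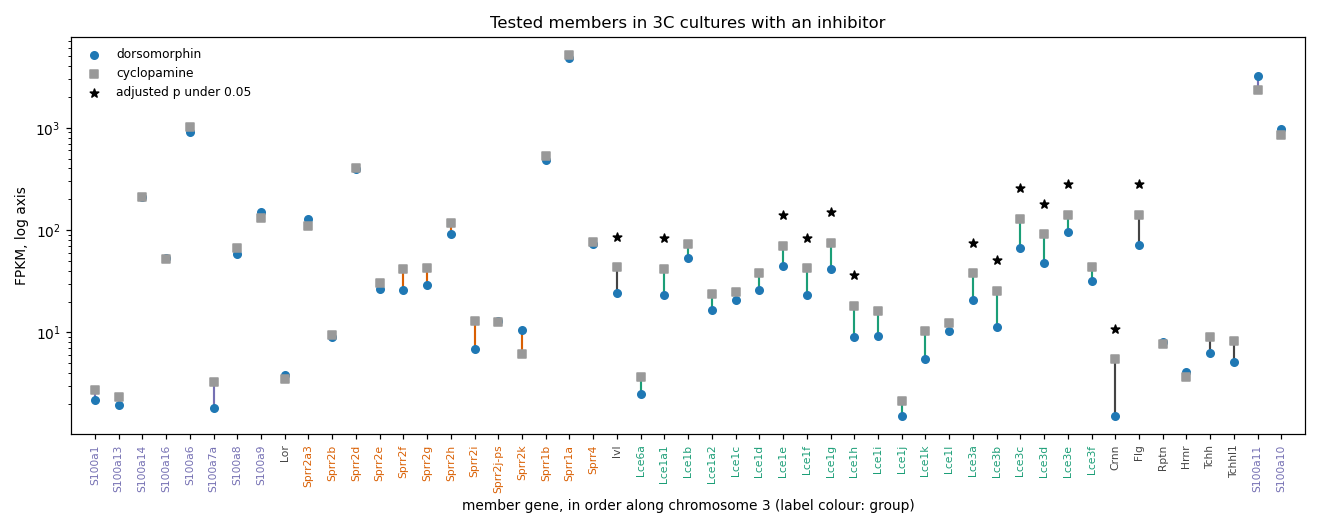
FPKM (log axis) of the 51 tested members in 3C cultures with dorsomorphin (circles) or cyclopamine (squares), 1 value per culture and no error bars, ordered along the chromosome, with stars where the adjusted p was under 0.05. The 13 stars stand on Lce genes and on Ivl, Crnn and Flg, and the Sprr pairs carry none.

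Envelope genes outside the complex were counted beside the members, from a list of 30 keratins, transglutaminases, desmosomal proteins, proteases and lipid enzymes. In CD34a6 against bulk 28 of 30 were lower, where 24.3% of all tested loci were, and 1 higher, Tgm5 at 363 against 41.9 FPKM. Among the lower, Cst6, a protease inhibitor gene, was at 2.13 against 209 FPKM. Asprv1, a protease gene of filaggrin processing, was at 43.5 against 2477 and Cnfn, the cornifelin gene, at 11.1 against 598. In HFSC against bulk 27 were lower, against 24.7% of all tested loci, and 1 higher, Pla2g4e at 8.94 against 2.11 FPKM. Among the lower were the suprabasal keratin genes Krt77 at 22.6 against 15602 FPKM, Krt10 at 41.5 against 25128 and Krt1 at 10.7 against 3056. In HFSC, then, 13 of 14 tested Sprr genes were called above bulk and 27 of these 30 partners below it. Between HFSC and CD34a6 the list was mixed, with 12 higher and 10 lower of 29 tested. Of all tested loci 25.2% were higher and 29.0% lower in that pair. There Cnfn was at 446 against 11.1 FPKM, Tgm5, a transglutaminase gene, at 5.71 against 363 and Calml3, a calmodulin-like gene, at 12.3 against 456. In CD34+ against CD34neg 12 of 18 were lower and 1 higher, where 4.71% and 2.08% of all tested loci were. Krtdap was at 28.8 against 147 FPKM, the protease gene Klk7 at 4.22 against 16.5 and Asprv1 at 5.47 against 20.5. With dorsomorphin against cyclopamine 2 of 27 were higher and 2 lower, where 1.26% and 1.31% of all tested loci were. Serpinb12 was at 1.96 against 0.449 FPKM and Krt1 at 12.4 against 6.52, both higher with dorsomorphin, and Tgm3 at 7.10 against 10.4, lower.

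Of 18 transcription factors of terminal differentiation 17 were found. Their counts stand beside shares of all tested loci called of 46.3% in CD34a6 against bulk, 43.7% in HFSC against bulk, 54.2% in HFSC against CD34a6, 6.79% in the sorted fractions and 2.57% with the inhibitors. In CD34a6 against bulk 10 of the 17 were lower and 3 higher, with Grhl3 at 3.35 against 46.5 FPKM, Ovol1 at 3.19 against 40.4 and Zfp750 at 6.39 against 68.7. All of these are regulators of keratinocyte differentiation. In HFSC against bulk 7 were lower and 3 higher, with Cebpa at 25.0 against 232 FPKM, and the AP-1 subunit genes Fos at 16.3 against 117 and Fosl1 at 6.43 against 0.801. HFSC against CD34a6 gave 8 higher and 7 lower, with Ovol1 at 26.03 against 3.19 FPKM, Fosl1 at 6.43 against 0.362 and Grhl3 at 20.6 against 3.35. In CD34+ against CD34neg Hopx was the 1 gene called, lower at 3.81 against 8.61 FPKM. With dorsomorphin Fosl1 (27.5 against 18.1) and Maf (22.8 against 15.5) were higher and 0 were lower.

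Among 8 partners and receptors of S100 proteins, Anxa2, which binds S100A10, was at 668 FPKM in CD34a6, 1341 in HFSC and 2838 in bulk. Anxa1, a partner of S100A11, was at 240, 899 and 1727 FPKM. Both were called in each of the 3 pairs. Of all tested loci 46.3% were called in CD34a6 against bulk, 43.7% in HFSC against bulk and 54.2% in HFSC against CD34a6. Anxa6 was at 54.4 FPKM in CD34a6, 10.6 in HFSC and 11.6 in bulk, and Ager, the receptor gene for several S100 proteins, was at 2.47 in CD34a6 and 0.143 in HFSC. In the sorted fractions and in the inhibitor cultures 6 of the 8 were tested and 0 called in the authors' deposited table, where 1 and 0 of them had an unadjusted p under 0.05. The shares of all tested loci called there were 6.79% and 2.57%.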

How the data were processed

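Polyadenylated RNA was sequenced from 21 libraries in 7 groups of 3, assigned by their titles. The authors deposited 3 tables of their own comparisons, in the Cuffdiff layout per the file headers: 1 FPKM value per locus and population, log2 fold changes, a test score, and p-values with q-values. For the first table (9 libraries), the authors list HISAT 0.1.6, the Cufflinks 2.2.1 suite (Cuffdiff) and StringTie 1.1.0 in the submitters' processing notes, although the labels name TopHat2. For the other 12 libraries the authors list, in the same notes, TopHat2 2.0.13 and DESeq2 1.8.1, with cutadapt 1.5 and featureCounts (Subread 1.4.2). Those 12 have tables of the Cuffdiff layout too, so the tool behind their p-values is not settled. The build was GRCm38. P-values may cover technical spread only.

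With Python 3.11.15 and pandas 2.3.3, repeated lines were removed (197, 1360 and 1358), and members, lists and alternatives were chosen with earlier results of these data known. The deposited q-values equal a Benjamini-Hochberg adjustment over the tested loci of a table within 5.3e-07. Since no values per library were used, the planned limma fit was not made. The 3C_HFSC column of the sorted fractions was read as CD34+. Genes were named by rule: the markers Lor, Sprr1b, Lce3c and S100a9, all genes of the Lor, Ivl and fused-type group, up to 6 called members per group and comparison with the largest log2 differences at 5 FPKM or more, those whose call differed between the pairs against bulk, and up to 3 called genes per list. Others were chosen after their values were seen. Motif counts used RefSeq promoters, and TATAAA was added after the first motif counts. Shared windows of 50 bases came from GENCODE vM21 transcripts. The scripts were tested on simulated data.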

Additional observations from a re-analysis of the deposited data

How the results depend on the processing

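No paired analysis was possible because each table holds 1 value per population, and for the same reason no replicate could be left out. Of 245 alternative values, 210 kept their direction and lay near the reported value. For counts this was within 1.5 times the reported count, and for log2 medians within a 1.5-fold difference on the unlogged scale. Among 120 alternative counts of called members 115 did, and in the exceptions 4 members were lower in HFSC than in CD34a6 by at least 2-fold, 3 lay below cyclopamine by at least 2-fold, and 26 were called between HFSC and CD34a6, 19 of them higher, without calls against a value of 0. Medians moved more. With a pseudocount of 0.1 or 0.01 FPKM, CD34a6 against bulk gave -5.88 and -6.14 for Lce and -4.30 and -4.89 for Sprr genes. HFSC against bulk gave 5.45 and 5.89 for Sprr. HFSC against CD34a6 gave 7.68 and 8.54 for Lce and 7.495 and 9.64 for Sprr, and with 0.01 FPKM 2.66 for the Lor, Ivl and fused-type group, whose median was 0.59 without loci that span another gene. CD34+ against CD34neg gave -1.63 and -1.77 for Lce. Over all members, tested or not, medians were -3.35 for Lce, -0.35 for Sprr and -0.39 for S100a in CD34a6 against bulk, -0.35 for Lce in CD34+ against CD34neg, and 0 for S100a in HFSC against bulk and with dorsomorphin. Scaling to the same total, chosen after seeing the data like the counting of all 8 Flg loci and the removal of calls against 0, gave 0.11 for S100a and -3.17 for the fused-type group in CD34a6 against bulk. It gave 2.12 for Lce, 4.52 for Sprr, 1.31 for S100a and -0.70 for the fused-type group in HFSC against bulk, 5.58 for Lce and 5.33 for Sprr in HFSC against CD34a6, and 0.0334 for Sprr and 0.0333 for S100a with dorsomorphin. Several alternatives left every count and median within the limits given above. These were p adjusted per pair, a threshold of 0.01, loci at 1 FPKM or more, all 8 Flg loci and centring on all loci. Depth was unknown, so members near 0 could not be told from absent ones.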

Other observations

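Other genes of the same interval were not members. Between S100a1 and S100a10 on chromosome 3 lay 58 other loci, and these were tested for 18 in CD34a6 against bulk, of which 10 were called lower and 0 higher in the authors' deposited table, where 46.3% of all tested loci were called. In HFSC against bulk 5 of 20 were higher and 6 lower, beside 43.7% of all tested loci called, and in HFSC against CD34a6 10 of 14 were higher and 1 lower, beside 54.2%. Crct1, which lies beside Lce1m, was at 16.6 FPKM in CD34a6, 288 in HFSC and 1665 in bulk. It was also lower in CD34+ than in CD34neg (2.48 and 8.59) and lower with dorsomorphin than with cyclopamine (149 and 228). Kprp, the keratinocyte proline-rich protein gene, was at 4.31, 66.6 and 96.1 FPKM in CD34a6, HFSC and bulk, and was called between CD34a6 and each of the others. The unnamed transcript 2310046K23Rik was at 0.693, 237 and 58.8 FPKM, and 2210017I01Rik was at 33.7 in HFSC and 1.64 in bulk. Pglyrp4, a peptidoglycan recognition gene, was at 2.59 FPKM in CD34a6, 7.94 in HFSC and 79.1 in bulk.

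Loci with merged symbols gave values of their own. The locus of RP23-326D6.5, S100a3 and S100a4 was at 260 FPKM in CD34a6, 17.4 in HFSC and 178 in bulk, and was called lower in HFSC against each of the others. The locus of Sprr2a1 and Sprr2a2 was at 1.39 FPKM in HFSC and 0.0413 in bulk and was listed at 0 in CD34a6, beside 94.4 for Sprr2a3 in HFSC, with which Sprr2a1 shares sequence. Genes named here were chosen after their values were seen.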
